A study of Arabidopsis thaliana with 16 samples.

Results

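The receptors described here are those through which secreted peptides control the spacing of stomata, the pores of the leaf epidermis. The 8 genes were chosen by locus: TMM (AT1G80080), ER (AT2G26330), ERL1 (AT5G62230), ERL2 (AT5G07180), SERK1 (AT1G71830), SERK2 (AT1G34210), BAK1, also called SERK3 (AT4G33430), and SERK4 (AT2G13790). They are 8 of the 33602 genes in the table, and all 8 were among the 20756 genes tested, those that reached 10 normalized counts in 4 or more libraries. Polyadenylated RNA of whole Arabidopsis thaliana seedlings was sequenced 7 days after germination in 16 libraries, 4 in each of 4 groups. The groups were wild type and a homozygous line with the transgene ATML1pro:GR-SPCH1-4A-YFP, called the inducible line below, each untreated at 0 h and collected 12 h after 100 μM dexamethasone. In the transgene the epidermal ATML1 promoter drives a variant of SPEECHLESS (SPCH), the transcription factor that starts the stomatal lineage, fused to the hormone-binding domain of the glucocorticoid receptor (GR) and a yellow fluorescent protein. Dexamethasone lets the fusion enter the nucleus. All seedlings were grown shaken in liquid medium with 1% sucrose. Seedlings kept for 12 h with no dexamethasone are not part of the data used here, so the agent and elapsed time cannot be told apart within a line. The labels do not say how many transgenic lines or separate cultures were used, so p-values measure the spread between these libraries, part of which may be technical.

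As background, ER, ERL1 and ERL2 are receptor kinases with leucine-rich repeats outside the cell, and the SERKs are shorter kinases that join them as co-receptors. TMM is a receptor-like protein with leucine-rich repeats but no kinase domain. It pairs with the ER-family receptors and shapes how they bind peptides of the EPF family. The receptors signal through the kinase YDA and a MAP kinase cascade that phosphorylates SPCH and lowers its activity in cells that should not become stomata. Whether the cascade acts in this way on the SPCH variant of the transgene was not tested. The SERKs also serve other receptors, among them those for brassinosteroid hormones and bacterial flagellin.

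Libraries held 16251477 to 22944391 reads assigned to genes, and the members had from 85 reads (ERL1) to 1881 reads (BAK1) per library. SPCH itself, whose row may also take reads of the transgene, stood between 116 and 233 normalized counts in the 8 libraries of the inducible line and between 56.1 and 72.0 in the 8 wild-type libraries. Replicates 1 and 2 of each group shared 1 sequencing lane and replicates 3 and 4 another. The first principal component, with 49.5% of the variance, separated the lanes, and every group has 2 libraries in each. All markers of epidermis, guard cells, mesophyll, vasculature and root that were looked up were detected. Of the 6 shoot meristem markers, WUS was at 0 in every library, and CLV3 and UFO had at most 4.90 normalized counts.

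Upstream sequences are shown for TMM and ERL1, the members that passed the main test between the lines, and for ERL2, the closest relative of ERL1. They are shown because basic helix-loop-helix factors such as SPCH bind E-boxes, the motif CANNTG. Each window is the 250 bases before the annotated transcript start in RefSeq's TAIR10.1 assembly, read 5′ to 3′ on the gene's strand, with any E-box in capitals. TMM lies on chromosome 1 at chr1:30127819-30129649 on the minus strand and has 1 exon, and its window is chr1:30129650-30129899. ERL1 lies at chr5:24996129-25002439 on the plus strand, with its window at chr5:24995879-24996128. ERL2 lies at chr5:2227439-2233587 on the minus strand, with its window at chr5:2233588-2233837.
TMM upstream: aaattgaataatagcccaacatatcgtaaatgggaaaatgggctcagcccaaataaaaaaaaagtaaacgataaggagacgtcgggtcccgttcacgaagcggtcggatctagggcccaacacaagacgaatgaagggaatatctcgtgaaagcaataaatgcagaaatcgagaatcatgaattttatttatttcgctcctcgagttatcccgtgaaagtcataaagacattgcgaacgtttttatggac
ERL1 upstream: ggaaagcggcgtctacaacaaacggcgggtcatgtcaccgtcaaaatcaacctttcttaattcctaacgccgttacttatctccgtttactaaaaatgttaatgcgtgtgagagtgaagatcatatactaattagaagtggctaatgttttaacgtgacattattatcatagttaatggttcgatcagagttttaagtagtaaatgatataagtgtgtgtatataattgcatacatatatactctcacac
ERL2 upstream: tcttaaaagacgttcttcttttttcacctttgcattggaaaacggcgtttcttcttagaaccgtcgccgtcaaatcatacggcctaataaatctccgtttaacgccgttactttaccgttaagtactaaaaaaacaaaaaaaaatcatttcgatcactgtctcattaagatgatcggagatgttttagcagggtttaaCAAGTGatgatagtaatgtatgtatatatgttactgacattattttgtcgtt
On both strands, the windows of TMM and ERL1 held no CANNTG, and that of ERL2 held 1, 52 bases upstream of the start. Among the other members BAK1 held 1, 156 bases upstream, and ER, SERK1, SERK2 and SERK4 held none. Of 26711 windows of the same length before annotated genes, 55.3% held at least 1 such motif, and the stricter G-box CACGTG, a form of CANNTG that none of the 8 windows held, was in 6.58%. The windows cover a small part of the regulatory sequence.

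Of the members, TMM had the largest rise over 12 h in the inducible line. Normalized counts, which are reads divided by 1 size factor per library, were 265, 311, 297 and 271 in replicates 1 to 4 of the inducible line at 0 h, and 1350, 1400, 1205 and 1450 at 12 h. In wild type they were 228, 198, 309 and 288 at 0 h, and 240, 239, 248 and 223 at 12 h. Every 12 h library of the inducible line thus stood far above all the other 12 libraries, which overlap one another. The rise in the inducible line was 4.71-fold (log2 2.24, 95% confidence interval 1.96 to 2.51, adjusted p = 2.1e-08 in limma with Benjamini-Hochberg adjustment over all genes tested). In wild type the log2 change was -0.08 (interval -0.36 to 0.19, adjusted p = 0.78). The difference of those changes, the interaction, was log2 2.32 (SE 0.18, adjusted p = 8.6e-06), and by p it ranked 1 among all genes tested. At 12 h TMM was 5.66-fold higher in the inducible line (log2 2.50, SE 0.13, adjusted p = 1e-08), and at 0 h the difference of the lines was 0.18 (interval -0.09 to 0.45, adjusted p = 0.48). The exact 2-sided permutation p was 0.0286, the smallest that 4 against 4 libraries can give, for the rise and for the lines at 12 h. In whole seedlings, more cells with TMM transcript and more transcript per cell cannot be told apart.

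**Figure D1:**
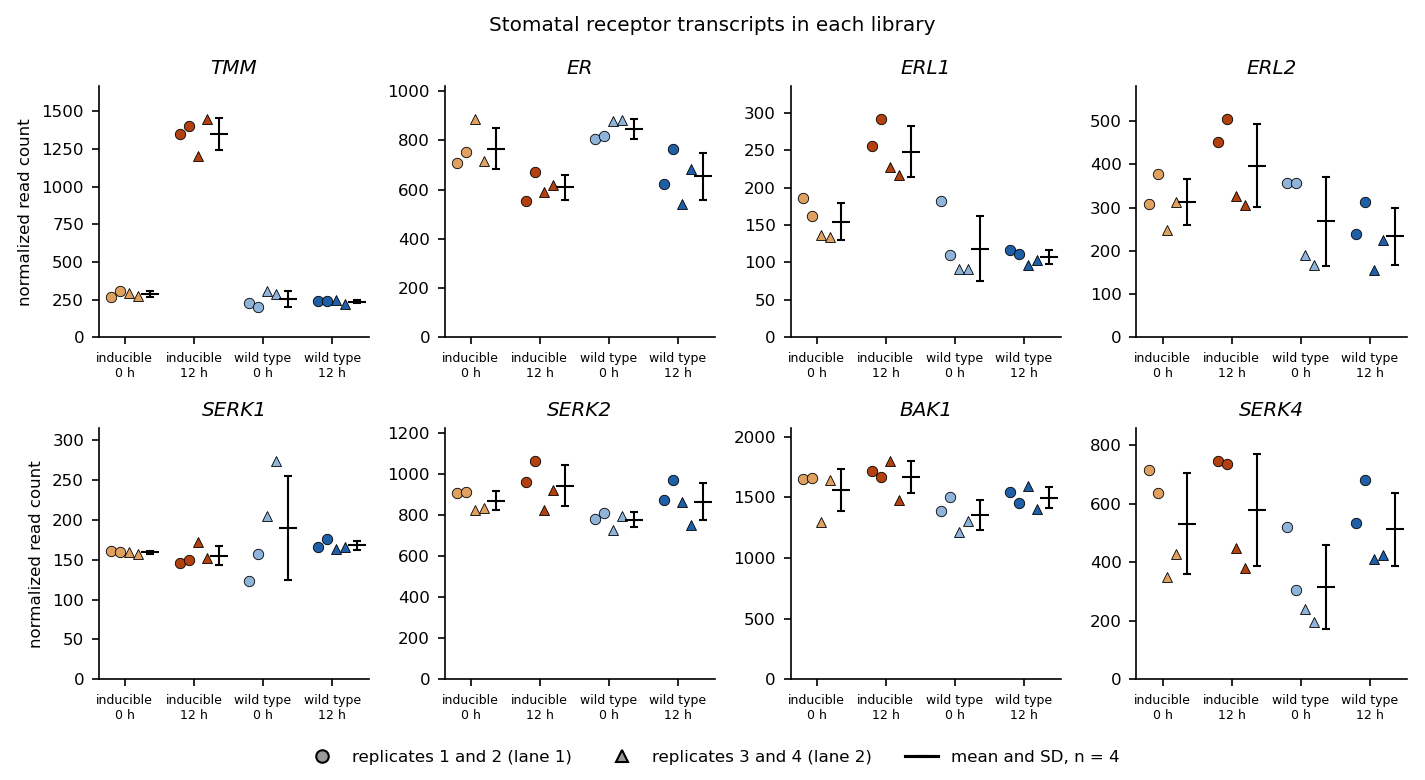
Normalized read counts (vertical axes, from 0) of the 8 receptor genes in each library of the 4 groups, with circles for replicates 1 and 2 (lane 1), triangles for replicates 3 and 4 (lane 2), and bars for mean and SD of 4 libraries. TMM stands at 1205 to 1450 in the inducible line at 12 h and at 198 to 311 elsewhere, and in SERK4 the circles stand above the triangles in every group.

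The members were chosen with earlier results of these data known, so setting their counts beside the shares of all genes is no test. In limma TMM was the only member called in the interaction, 1 of 8 where 0.511% of all genes passed (0.0964% higher and 0.414% lower). It was also the only one that limma called over 12 h in the inducible line, 1 of 8 where 5.12% passed (1.44% higher and 3.68% lower), while DESeq2 called 2. At 12 h the lines differed in TMM and ERL1, 2 of 8 where 3.4% passed (1.2% higher in the inducible line and 2.2% lower). In limma no member passed for wild type between the times, where 4.72% of all genes did (2.27% higher and 2.45% lower), or for the lines at 0 h, where 1.99% did (1.42% higher and 0.573% lower). In each of these comparisons 2 members had an unadjusted p under 0.05. edgeR called 0 in both, and DESeq2 called 1 in the former and 0 in the latter. With the replicate block, 1 member passed in the interaction (2.5% of all genes), 2 in the inducible line between the times (8.88%), 2 in wild type (13.3%), 3 between the lines at 12 h (6.42%) and 1 at 0 h (11.3%). The median log2 difference over the 8 members was 0.06 in the interaction, where that of all genes was -0.00. It was 0.11 for the inducible line between the times and -0.08 for wild type, against 0.01 and -0.00 for all genes. Between the lines it was 0.15 at 12 h and 0.19 at 0 h, against 0.01 and 0.00.

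**Figure D2:**
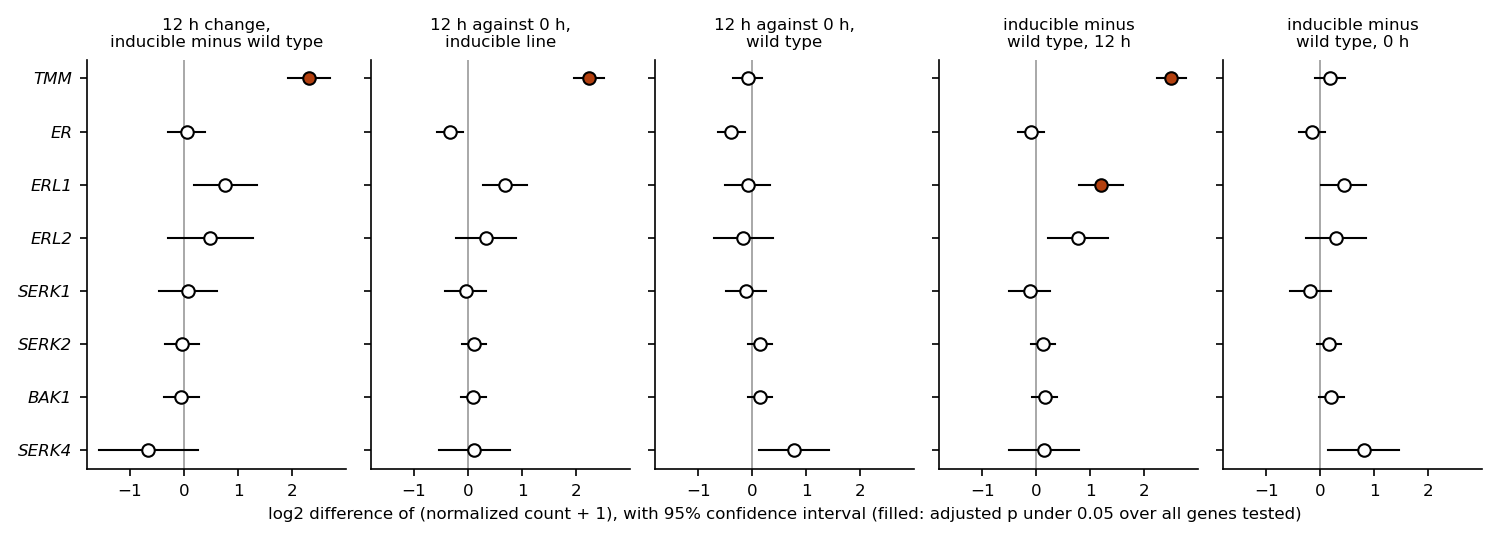
Log2 differences of (normalized count + 1) with 95% confidence intervals for the 8 genes in the 5 comparisons, filled where the adjusted p over all genes tested was under 0.05. TMM is filled in 3 panels, at 2.32, 2.24 and 2.50, and ERL1 in the comparison of lines at 12 h, at 1.20.

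ERL1, an ER-family kinase that acts in the stomatal lineage, was higher in the inducible line at 12 h. Its counts there were 256, 292, 227 and 217, against 117, 112, 96.4 and 104 in wild type at 12 h. At 0 h they were 186, 162, 137 and 134 in the inducible line and 182, 110, 90.8 and 91.3 in wild type. The 12 h libraries of the lines do not overlap, while at 0 h wild-type replicate 1 reached the level of the inducible line. At 12 h the difference was 2.29-fold (log2 1.20, SE 0.20, interval 0.79 to 1.61, adjusted p = 0.0016, exact permutation p = 0.0286). Within the inducible line ERL1 differed by log2 0.68 between 12 h and 0 h (interval 0.27 to 1.09, adjusted p = 0.052), with no overlap of the libraries and a higher value in 4 of 4 replicate numbers. Same-numbered libraries share a sequencing lane, and with the replicate as a block this change had an adjusted p of 0.00599. In wild type the change was -0.09 (interval -0.50 to 0.33). The interaction was 0.77 (interval 0.19 to 1.35, adjusted p = 0.27), so in this fit the change was not shown to exceed that of wild type. With a lane term the interaction had an adjusted p of 0.0499, the 1 of 25 alternatives in which it passed. Its lane 1 libraries stood above its lane 2 libraries in 4 of 4 groups, 1.29-fold on average, and the line difference at 12 h passed within each lane. At 0 h the difference of the lines was 0.43 (adjusted p = 0.24), and without wild-type 0 h replicate 1 it was 0.65 (adjusted p = 0.0194).

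ERL2, the closest relative of ERL1, shares its role in the lineage in part. Its counts were 308, 378, 249 and 314 at 0 h and 452, 506, 327 and 306 at 12 h in the inducible line. In wild type they were 358, 357, 191 and 168 at 0 h, and 239, 314, 156 and 224 at 12 h. The groups overlapped in all comparisons, and the lane 1 libraries were above the lane 2 libraries in 3 of 4 groups, 1.52-fold on average. The line difference at 12 h was log2 0.78 (interval 0.22 to 1.33, adjusted p = 0.14, exact permutation p = 0.0571), higher in 4 of 4 replicate numbers, and with the replicate block it had an adjusted p of 0.00373. The interaction was 0.49 (interval -0.29 to 1.27, adjusted p = 0.66).

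ER, the founding member of the family, which also controls stem and organ growth, had lower counts at 12 h in both lines. They were 707, 754, 888 and 717 at 0 h and 555, 673, 590 and 617 at 12 h in the inducible line. In wild type they were 807, 819, 879 and 881 at 0 h, and 621, 767, 543 and 683 at 12 h. In each line all 12 h libraries stood below all 0 h libraries. ER differed between the times by log2 -0.33 in the inducible line (interval -0.57 to -0.09, adjusted p = 0.13) and -0.38 in wild type (interval -0.62 to -0.14, adjusted p = 0.065), both with an exact permutation p of 0.0286. In limma neither passed. With the replicate block the wild-type change passed (adjusted p = 0.0262), and so it did in DESeq2 (0.0267). Their difference was 0.05 (interval -0.29 to 0.40, adjusted p = 0.95). Between the lines ER differed by -0.09 at 12 h and -0.15 at 0 h, with intervals that include 0.

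Over 12 h in the inducible line, TMM, ERL1 and ER were the members whose libraries did not overlap, 3 of 8 where 13% of all genes did not. In wild type over time it was ER, 1 of 8 (9.23% of all genes). Between the lines it was TMM and ERL1 at 12 h, 2 of 8 (9.65%), and SERK2 at 0 h, 1 of 8 (8.53%).

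Within the ER family the share of ERL1 was highest in the induced libraries. The sum of ER, ERL1 and ERL2 was 1233 ± 60.5 (SD, n = 4) at 0 h and 1254 ± 155 at 12 h in the inducible line, and 1233 ± 99.02 and 994 ± 163 in wild type. Per kb of exon, which allows genes of different length to be compared, ER made up 59.7% ± 5.42 of the family at 0 h and 46.3% ± 4.75 at 12 h in the inducible line, against 67.0% ± 8.94 and 63.6% ± 2.39 in wild type. ERL1 made up 13.7% ± 2.20 and 21.2% ± 0.469 in the inducible line, and 10.4% ± 2.88 and 12.0% ± 1.47 in wild type. In each 12 h library of the inducible line the share of ERL1, 20.6% to 21.7%, was above that of every other library, of which the highest was 16.8%. These shares are a description with no test.

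TMM was also set against the receptors it pairs with. Per kb of exon, the ratio of TMM to the summed ER family was 0.460, 0.5002, 0.491 and 0.487 in replicates 1 to 4 of the inducible line at 0 h. At 12 h it was 2.19, 1.96, 2.18 and 2.63. In wild type it ranged from 0.324 to 0.564 at 0 h and from 0.421 to 0.656 at 12 h. TMM transcript thus stood below the ER-family sum in 12 libraries and above it in the 4 induced ones. The ratio is formed within a library and does not depend on the size factors, but it depends on the lengths: from normalized counts alone the means were 0.232, 1.09, 0.210 and 0.245 in the same order of groups. Transcript ratios say nothing of protein ratios.

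**Figure D3:**
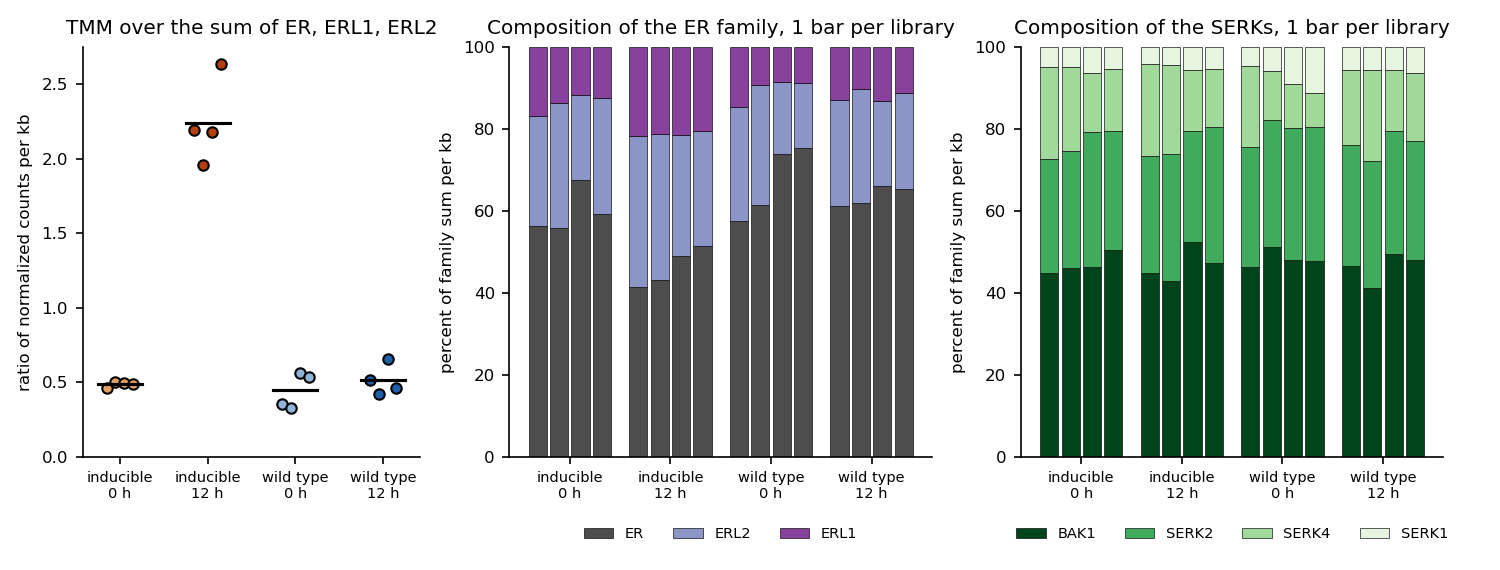
Left, the ratio of TMM to the sum of ER, ERL1 and ERL2 in normalized counts per kb of exon, 1 point per library with the group mean as a line. Middle and right, the makeup of the ER family and of the 4 SERKs in percent of the family sum per kb, 1 bar per library in the order of replicates 1 to 4. The ratio is 1.96 to 2.63 in the inducible line at 12 h and at most 0.656 elsewhere, and BAK1 is the largest share of the SERKs in every library.

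BAK1, the co-receptor best known from brassinosteroid and immune signalling, made up the largest part of the member SERKs per kb of exon in every library. Its group means were 46.2% to 48.3% of their sum, which leaves out SERK5. Its normalized counts were 1648, 1659, 1296 and 1640 at 0 h and 1717, 1670, 1802 and 1482 at 12 h in the inducible line, and from 1218 to 1507 and from 1401 to 1590 in wild type. The groups overlapped in all comparisons. BAK1 differed between the times by log2 0.10 in the inducible line (interval -0.13 to 0.33) and 0.15 in wild type (interval -0.08 to 0.37), and the interaction was -0.05 (interval -0.37 to 0.27, adjusted p = 0.95).

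SERK2 and SERK1 are each other's closest relatives among the member SERKs by coding sequence and act together in pollen sac development. SERK2 ranged from 824 to 915 at 0 h and from 827 to 1065 at 12 h in the inducible line, and from 726 to 811 and from 754 to 974 in wild type. The lines did not overlap at 0 h, where the inducible line was higher by log2 0.16 (interval -0.05 to 0.38, adjusted p = 0.41, exact permutation p = 0.0286), a difference that did not pass over all genes. The interaction of SERK2 was -0.04 (interval -0.34 to 0.27).

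By group means SERK1 made up the smallest part of the member SERKs per kb of exon, at 4.90% to 7.70%, with SERK5 left out. In wild-type 0 h replicate 4, though, the share of SERK4 was 8.23% and that of SERK1 11.2%. Its normalized counts stood at 160, 159, 160 and 157 in the inducible line at 0 h and 145, 150, 172 and 152 at 12 h, and in wild type at 124, 157, 204 and 274 at 0 h and 166, 176, 164 and 166 at 12 h. The wild-type 0 h libraries span a wider range than the other 3 groups together. No comparison of SERK1 passed, the interaction was 0.07 (interval -0.46 to 0.60), and without wild-type 0 h replicate 4 it was -0.13.

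SERK4, which acts with BAK1 in immunity and cell death control, had the widest spread. It had 716, 636, 351 and 428 at 0 h and 747, 738, 448 and 381 at 12 h in the inducible line. In wild type it had 519, 306, 239 and 195 at 0 h, and 534, 682, 412 and 424 at 12 h. Replicates 1 and 2 stood above replicates 3 and 4 in 4 of 4 groups, 1.70-fold on average, a lane difference (log2 0.76) that 6.04% of the tested genes exceeded. SERK4 was higher in wild type at 12 h than at 0 h by 0.77 (interval 0.12 to 1.43, adjusted p = 0.17) and higher in the inducible line at 0 h by 0.80 (interval 0.15 to 1.45, adjusted p = 0.17). Wild type at 0 h held the lowest libraries of the 4 groups. With the replicate block they had adjusted p of 0.00276 and 0.00375, and without wild-type 0 h replicate 1 they were 1.05 (adjusted p = 0.0341) and 1.07 (adjusted p = 0.032).

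The counts of SERK4 carry a further limit, since it shares sequence with its neighbour SERK5. The coding sequences of SERK4 and SERK5 were identical at 91.4% of aligned bases, with an unbroken identical run of 473 bases. Of the 2453 stretches of 50 bases in the exons of SERK4, 566 (23.1%) occurred elsewhere in the genome, and for the other 7 members the number was 0. The last bases of that run and the first difference after it are shown, from coding position 1796 of SERK4 and 1739 of SERK5, with the base that differs in capitals.
SERK4 (chr2:5746514-5746573, plus strand): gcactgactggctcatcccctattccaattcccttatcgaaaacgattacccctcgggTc
SERK5 (chr2:5756998-5757057, plus strand): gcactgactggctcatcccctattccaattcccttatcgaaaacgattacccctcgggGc
Reads within the shared run cannot be assigned to 1 of these genes by sequence, and how the authors counted them is not given in the sources used here. SERK5 ranged from 121 to 181 normalized counts over all 16 libraries, with group means of 146 and 143 in the inducible line and 139 and 156 in wild type.

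ERL1 and ERL2, by contrast, can be told apart over short stretches. Their coding sequences were identical at 82.7% of aligned bases with a longest identical run of 31 bases, and ER was identical to ERL1 at 65.7% and to ERL2 at 66.3%. The stretch around that run is shown with the differing bases in capitals, since in the main fit ERL1 was called between the lines at 12 h and ERL2 was not. With the replicate block ERL2 passed there too (adjusted p = 0.00373). Whether the line differences of ERL1 and ERL2 differ was not tested.
ERL1 (chr5:24997513-24997572, plus strand): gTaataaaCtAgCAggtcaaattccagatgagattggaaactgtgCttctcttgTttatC
ERL2 (chr5:2232264-2232323, minus strand): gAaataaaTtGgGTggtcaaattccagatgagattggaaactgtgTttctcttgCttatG
Among the SERKs, SERK1 and SERK2 were identical at 79.6% (longest run 41 bases) and BAK1 and SERK4 at 82.0% (longest run 39 bases).

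The levels per kb of exon gave an order of the members in each group. In wild type at 0 h the order was BAK1 (471 ± 42.9, SD, n = 4), SERK2 (305 ± 14.5), ER (212 ± 9.82), TMM (140 ± 28.1), SERK4 (126 ± 57.4), SERK1 (73.7 ± 25.4), ERL2 (73.7 ± 28.3) and ERL1 (33.7 ± 12.3). Each of BAK1, SERK2 and ER was clear of the next, while the libraries of neighbours from TMM down to ERL1 overlapped. In the inducible line at 0 h BAK1 (543 ± 61.5) was again highest and ERL1 (44.0 ± 6.91) lowest, with TMM the fifth at 156 ± 11.7. At 12 h in that line TMM came first at 738 ± 57.7, and its libraries (658 to 792) did not overlap those of BAK1 (515 to 626), which came next at 580 ± 47.0. ERL1 (70.6 ± 9.57) moved above SERK1 (60.3 ± 4.67) with overlapping libraries. In wild type at 12 h BAK1 (521 ± 29.6) was highest, TMM (130 ± 5.89) was again the fifth and ERL1 (30.5 ± 2.54) was lowest.

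**Figure D4:**
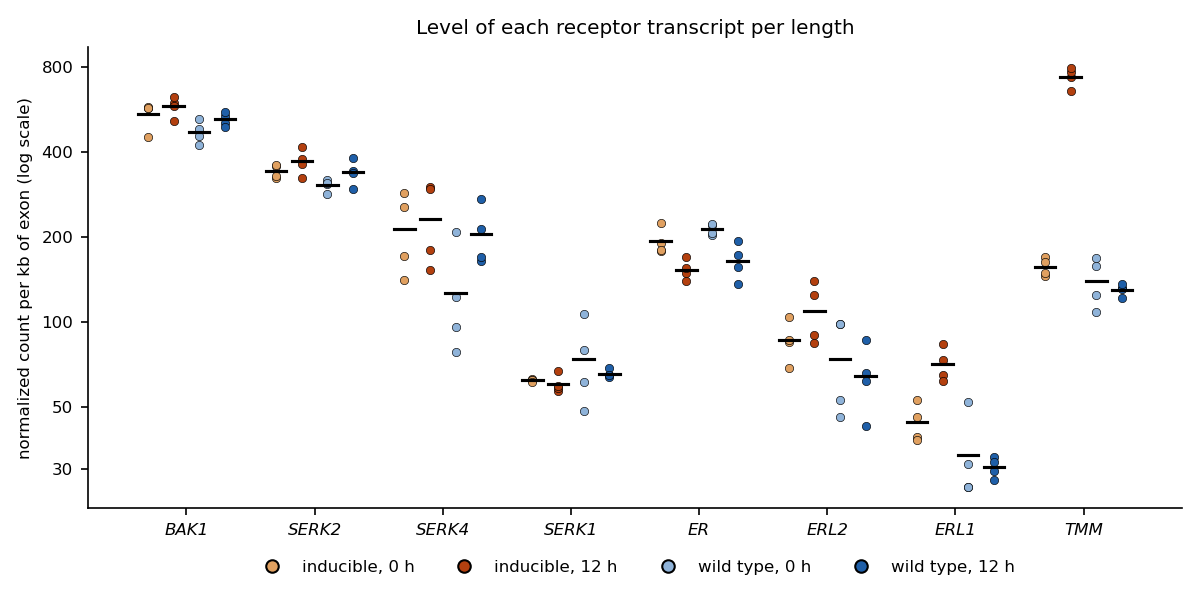
Normalized counts per kb of exon (log scale) of each member, 1 point per library and a line at the group mean, coloured by group. BAK1 is highest in 3 groups, and TMM at 658 to 792 is highest in the inducible line at 12 h.

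Within groups, the members did not move as 1 block. Over the deviations of 16 libraries from their group means, SERK4 went with ERL1 (r = 0.887) and ERL2 (r = 0.833), and ERL1 with ERL2 (r = 0.716). These libraries share lanes, and over deviations from the means of group and lane the same pairs had r of 0.737, 0.345 and 0.00118. Each group has 2 libraries in a lane, whose deviations mirror each other, so these r rest on fewer free values than 16. The difference of lane 1 and lane 2 libraries, averaged with its sign over the groups, had a median of 0.22 (log2, absolute) over all genes tested. The 90th percentile was 0.61. ERL2 lay at 0.61 and SERK4 above it, while the averages of ER (-0.01), TMM (-0.10) and BAK1 (0.11) lay below the median. Opposite signs cancel in such an average: single groups ran from -0.13 to 0.18 for ER, -0.49 to 0.06 for TMM and 0.01 to 0.20 for BAK1. In each lane alone, TMM passed in the same 3 comparisons and ERL1 passed at 12 h.

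The genes whose pattern over the 16 libraries was most like each member were found on log2(normalized count + 1), as a description. For TMM they were AT3G49900 of the NPH3 family (r = 0.975), CPL3, a small MYB protein (r = 0.972), and POLAR (a synonym of AT4G31805 in RefSeq, r = 0.968). Their interactions were log2 1.06, 2.87 and 1.82, a direction that the choice by likeness to TMM largely fixes, so no test of the genes chosen this way is given. Over deviations from the group means their r was 0.638, -0.306 and 0.056. For ERL1 they were SOL1 (r = 0.931), AT1G11185 (0.899) and AT4G10530, a subtilase family gene (0.895). Between the times in the inducible line the log2 change was 0.81 for SOL1, which encodes a CXC-domain protein, and 2.17 for AT4G10530. The choice by likeness to ERL1 favours that direction. For ERL2 they were FLP, a MYB factor of the last division of the stomatal lineage (r = 0.936), AT2G25730 (0.925) and AT5G10080 (0.921). Their r over deviations from the group means, where lane was not separated, was 0.93, 0.945 and 0.954. The likeness to ERL2 was thus present within groups, and the part of lane in it was not tested.

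For ER the most like genes were PAP29 (r = 0.917), PTAC14 (0.901) and APT3 (0.889). Each had a negative change between the times in both lines, a direction that the choice by likeness to ER favours. For APT3, an adenine phosphoribosyltransferase gene, it was -0.69 with the transgene and -0.59 in wild type. For the SERKs they were AT5G46170, RS2Z32 and AT2G02170 with SERK1 (r from 0.858 to 0.866), and 5PTASE13, AT3G27870 and FANCM with SERK2 (0.876 to 0.925). RHF2A, AT2G21390 and ADS1 went with BAK1 (0.886 to 0.898), and AT4G24840, AT5G44090 and AT2G22530 with SERK4 (0.965 to 0.983). Over deviations from the group means, where lane was not separated, r of the genes most like SERK4 was 0.945 to 0.973.

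The pathway around the receptors was read from lists ordered by role. These lists and those of cell type markers were chosen with earlier results of these data known. Their counts beside the shares of all genes are therefore a description. Of the secreted ligands and the proteases that act on them, 9 of 13 were tested. In the interaction 1 of these rose, where 0.0964% of all genes did. It was EPF2, the peptide that limits entry into the lineage and is perceived by the ER family with TMM. EPF2 stood at 39.8 to 79.0 in the inducible line at 0 h and 379 to 723 at 12 h, and at 42.3 to 93.0 and 57.2 to 67.3 in wild type. Its rise beyond wild type was log2 3.11 (SE 0.38, adjusted p = 8e-04). EPF1, the peptide that spaces later divisions and is perceived through ERL1, had at most 16.01 normalized counts in any library and an interaction of -0.38 (interval -1.89 to 1.12). EPFL9, also called STOMAGEN, which opposes the other peptides at the same receptors, had 3.01 to 38.2 and an interaction of 0.36 (interval -1.05 to 1.77).

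Of the 15 regulators and cytoplasmic partners of these receptors, among them BIR1, BKI1, BIK1, the BSK and BSL proteins and SERK5, none passed in any of the 5 comparisons in limma. In these comparisons edgeR and DESeq2 called 0 each. Unadjusted p was under 0.05 for 1 gene in the interaction, for 2 between the times in the inducible line, for 2 between the lines at 0 h, and for 0 in the remaining comparisons. The 1 in the interaction was BIR1, a kinase that binds BAK1, at log2 -0.36 (interval -0.70 to -0.02, adjusted p = 0.4). The median of the list there was -0.05. With the replicate block 1 gene of this list passed in the inducible line between the times, where 8.88% of all genes did. Between the lines at 0 h 1 passed, where 11.3% of all genes did.

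Of the 7 MAP kinase cascade genes none passed in the interaction in limma, edgeR or DESeq2, and 0 had an unadjusted p under 0.05. MKK7 rose in both lines over time (log2 1.30, adjusted p = 0.0087, and 1.10, adjusted p = 0.032), and was higher in the inducible line at 12 h (1.24, adjusted p = 0.017). MKK9 fell in both (-1.43, adjusted p = 0.00046, and -0.90, adjusted p = 0.024) and was higher in the inducible line at 0 h (1.06, adjusted p = 0.018). These kinases have been placed in the later steps of stomatal development. YDA, MKK4, MKK5, MPK3 and MPK6, the core of the cascade below ER and TMM, passed in no comparison in limma. At 0 h 3 of the 7 cascade genes were higher in the inducible line with the replicate block, where 11.3% of all genes passed.

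Of the 7 transcription factors and polarity genes, 4 rose in the interaction, where 0.0964% of all genes did. The list was chosen with earlier results of these data known, so setting it beside that share is no test. ICE1 (log2 1.07, adjusted p = 0.001) and SCRM2 (1.02, adjusted p = 0.01) encode partners of SPCH, and BASL (2.42, adjusted p = 0.017) and POLAR mark the division polarity of the lineage. Of these, ICE1 fell in wild type over time (-0.35, adjusted p = 0.042), a call lost in 15 of 26 alternatives. SPCH was higher in the inducible line at 0 h (1.12, adjusted p = 0.002) and at 12 h (1.58, adjusted p = 1.1e-05), with the limit on transgene reads given above. The median of the 7 was 1.02 in the interaction. With lane 1 alone, where 3 genes of the whole table passed in the interaction, 0 of the 7 did.

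Of the 11 other receptors that work with SERKs, none passed in the interaction in limma or edgeR, and 2 had an unadjusted p under 0.05. DESeq2, which called 388 of all genes there, and the fit with the replicate block, which called 2.5%, called 1 each. EMS1, a receptor of anther cell fate that works with SERK1 and SERK2, stood at 70.1 to 110.5 and 152 to 262 in the inducible line, and at 60.9 to 116 and 57.2 to 113 in wild type. It rose over time in the inducible line (log2 1.34, adjusted p = 0.0024) and was higher there at 12 h (1.39, adjusted p = 0.0031), while its interaction was 1.48 (interval 0.76 to 2.21, adjusted p = 0.067). In the inducible line over time FLS2, the flagellin receptor (0.62, adjusted p = 0.026), EFR, the receptor for bacterial elongation factor (0.64, adjusted p = 0.028), and HAE, a receptor of organ shedding (0.93, adjusted p = 8.7e-05), rose too. In wild type EFR (0.71, adjusted p = 0.02) and HAE (0.99, adjusted p = 0.00014) rose. PEPR2, a receptor for a wound peptide, was higher in the inducible line at 0 h (0.77, adjusted p = 0.03).

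**Figure D5:**
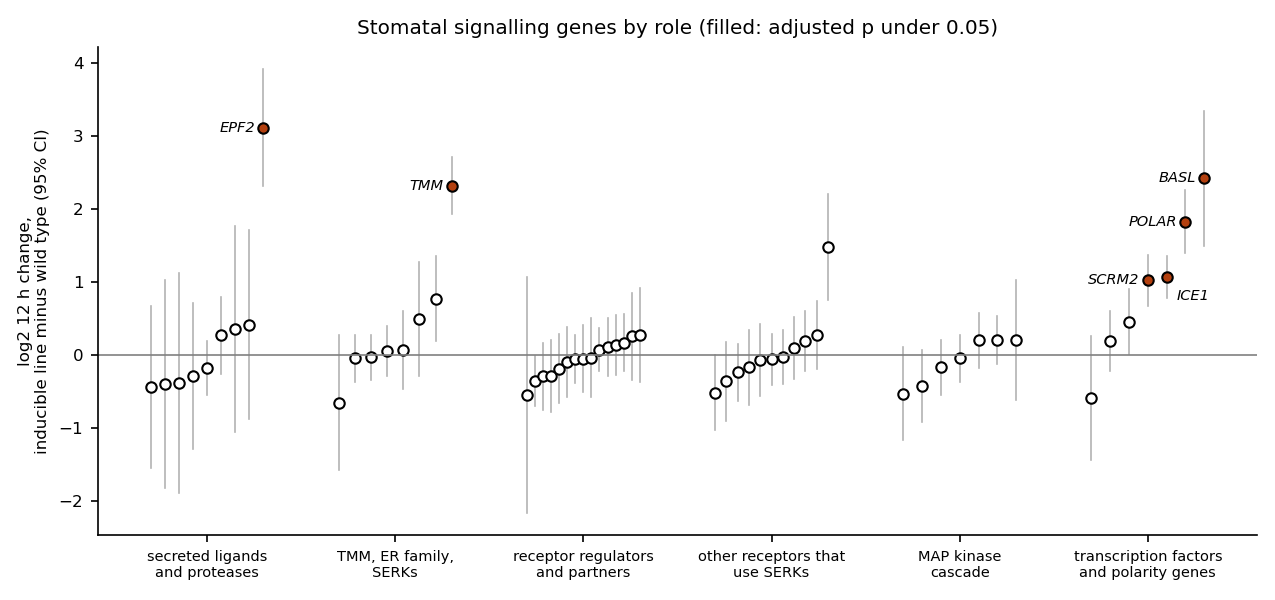
Interaction (log2, the change over 12 h in the inducible line less the change in wild type), with 95% confidence intervals, for the tested genes of each role, filled where the adjusted p over all genes was under 0.05. The filled genes are EPF2 (3.11), TMM (2.32), BASL (2.42), POLAR (1.82), ICE1 (1.07) and SCRM2 (1.02), and the unfilled gene above 1 among the other receptors is EMS1 (1.48).

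Markers of cell types stood beside these changes as follows. None of the lists of markers had a member that passed in the interaction in limma, edgeR or DESeq2, and unadjusted p was under 0.05 for 1 of 6 epidermis and 1 of 5 mesophyll markers and for 0 of the guard cell, vascular, shoot meristem and root markers. Between the lines at 0 h 1 mesophyll marker, RBCS3B, was lower in the inducible line (-0.73, unadjusted p = 0.00099, just past the threshold once adjusted), where 0.573% of all genes were. Of 26 alternatives 21 changed that count, to 0 in edgeR and to 2 in DESeq2, for example. Under the replicate block 4 of the 6 epidermis markers, all lower at 12 h, passed between the times in the inducible line, where 8.88% of all genes did. Without the block none of the 6 passed there in limma or edgeR, 4 had an unadjusted p under 0.05 and DESeq2 called 2, and PDF1 (0.34) and PDF2 (0.07) had positive differences. The 6 guard cell markers summed to 748 to 854 normalized counts in the inducible line at 0 h and 937 to 968 at 12 h, and to 638 to 870 and 816 to 934 in wild type. The sum of the 6 epidermis markers had a mean of 14930 ± 2064 (SD, n = 4) and 12790 ± 1764 in the inducible line. In wild type the sum had a mean of 16800 ± 3468 and 14410 ± 2322. At 12 h, 2 of the 6 were lower in the inducible line, where 2.2% of all genes were, ATML1, whose promoter drives the transgene (log2 -0.57, adjusted p = 0.029), and GL2, a trichome and root hair factor (-1.06, adjusted p = 0.0031). Of the other 4, PDF1 (0.46, unadjusted p = 0.0267) and PDF2 (0.12) had higher values there, and FDH (-0.37) and CER5 (-0.55) lower ones. The count of 2 moved in 8 of 26 alternatives, to 0 in each lane alone. SUC2, of the phloem, rose in the inducible line over time (0.69, adjusted p = 0.025) and differed by 0.59 in wild type (adjusted p = 0.06). CLV1, of the shoot meristem, rose in wild type (0.46, adjusted p = 0.018) and differed by 0.33 in the inducible line (adjusted p = 0.085). The part of cell composition in the levels of TMM and ERL1 was not tested.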

How the data were processed

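Deposited columns were matched to libraries by name. Per the submitters' processing notes, the tools were TopHat, HTSeq, SAMtools and DESeq2, without versions, on TAIR10. How strand and multiply aligned reads were treated is not given in the sources used here. Deposited values are a signal, namely read counts per gene divided by the authors with a single size factor for each library: 100% of them lay within 0.001 read of whole multiples of 1 step, from which the reads were recovered. limma 3.58.1 (R 4.3.3, trend and robust moderation) was run on log2(normalized count + 1), with 1 fit of 4 group means over all 16 libraries, Benjamini-Hochberg adjustment over 20756 genes and a threshold of 0.05. Fold changes are on that scale and understate the change of genes with low counts. The fit was tested on simulated data. Intervals are 95% and cover the spread between libraries. Exact permutation tests were 2-sided over 70 splits of 4 against 4.

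The alternatives were edgeR 4.0.16 and DESeq2 1.42.0 on the recovered reads, a replicate block, a lane term, each lane alone, trimmed-mean factors, a pseudocount of 5, no filter, the compared groups alone and leaving out each library. In the order interaction, inducible line between the times, wild type between the times, lines at 12 h and lines at 0 h, edgeR called 107, 1067, 978, 685 and 411 genes, and DESeq2 called 388, 1517, 1808, 1120 and 1360. In 24 of 24 pairs of same-numbered libraries the deviations from group means correlated, with r from 0.521 to 0.718. The labels put replicates 1 and 2 on a lane and 3 and 4 on another, so same-numbered libraries always share a lane. These r therefore cannot tell a pairing by number from the lane. In 12 of the 24 the best match was the same number.

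Sequences, exon lengths and names come from the TAIR10.1 genome and annotation of RefSeq, which matched all 8 members, and coding sequences were aligned with Biopython 1.88. The receptor genes and all lists were chosen with earlier results of these data known. Genes named beyond the members are up to 4 per list, those past the threshold in any comparison with the smallest adjusted p, the cell type markers past the threshold, and the 3 genes most correlated with each member. EPF1, EPFL9, BASL, BIR1, BKI1, BIK1, the BSK and BSL genes, SERK5, PEPR2, WUS, CLV3 and UFO fall outside that rule. So do the cascade genes and epidermis markers that did not pass. All of these were named after their values were seen.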

Additional observations from a re-analysis of the deposited data

Results flagged for a closer look

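The change of TMM over 12 h differed between the lines by log2 2.32 (limma, adjusted p = 8.6e-06): TMM rose in 4 of 4 replicate numbers in the inducible line and was lower in 2 of 4 in wild type. In the inducible line at 0 h, replicate 3 of BAK1, at 1296 normalized counts, lay apart from the other 3 libraries at 1640 to 1659, by more than Dixon's critical value for 4 samples. A test of 32 groups of 4 libraries was made, and chance marks about 1 in 20 such groups. Without that library the interaction of BAK1 was -0.14.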

How the results depend on the processing

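TMM passed under every alternative run, with an interaction of 2.08 to 2.56 over 25 alternatives (highest adjusted p = 0.0175), a rise in the inducible line of 2.20 to 2.29 and a line difference at 12 h of 2.47 to 2.55, the latter 2 over 26 alternatives. The line difference of ERL1 at 12 h was 1.12 to 1.26 over 26 alternatives (highest adjusted p = 0.0428).

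With the replicate block, members called numbered 1 in the interaction, 2 in the inducible line between the times, 2 in wild type, 3 between the lines at 12 h and 1 at 0 h, against 1, 1, 0, 2 and 0. Of all genes the block called 2.5%, 8.88%, 13.3%, 6.42% and 11.3%. The added calls are ERL1 in the inducible line, ER and SERK4 in wild type, ERL2 at 12 h and SERK4 at 0 h, and the block changed no other call among members. The lane term gave 2, 2, 2, 3 and 1, where the additional member in the interaction was ERL1 (adjusted p = 0.0499). A pseudocount of 5, DESeq2 and the compared groups alone each gave 2 in the inducible line. In wild type DESeq2 and lane 2 alone gave 1 each, and at 0 h lane 2 alone gave 1. Leaving out 1 library gave 1 to 1, 1 to 2, 0 to 1, 2 to 2 and 0 to 2. In the inducible line the change of ERL1 passed in 9 of 26 alternatives (adjusted p from 0.0043 to 0.289), among them those without inducible 0 h replicate 1 (0.0485) and without wild-type 0 h replicate 1 (0.00879), 3 (0.0483) or 4 (0.0464). The change of ER in wild type passed in 4 of 26 (0.0235 to 0.508), among them that without wild-type 12 h replicate 2 (0.0452).

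Signs reversed for members that had not passed. With lane 1 alone the log2 difference was -0.020 for ER and -0.41 for SERK1 in the interaction, 0.17 for TMM and 0.29 for SERK1 in wild type, and -0.065 for ERL2 and 0.20 for SERK1 at 0 h. With lane 2 alone it was 0.032 for SERK1 in the inducible line, 0.13 for ERL1 and 0.061 for ERL2 in wild type, -0.014 for SERK4 at 12 h and -0.071 for TMM at 0 h. Leaving out 1 library, the interaction ran from -0.031 to 0.13 for ER, -0.13 to 0.25 for SERK1, -0.10 to 0.026 for SERK2 and -0.14 to 0.0074 for BAK1. The change in wild type ran from -0.20 to 0.014 for TMM, -0.19 to 0.14 for ERL1, -0.36 to 0.019 for ERL2 and -0.29 to 0.086 for SERK1. For SERK4 the inducible line's change ran from -0.065 to 0.29 and the line difference at 12 h from -0.0015 to 0.32, and for SERK1 from -0.37 to 0.0089 at 0 h. The cause of these shifts was not tested.

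Per kb of exon the TMM to ER-family ratios were 0.484, 2.24, 0.444 and 0.514 in the inducible line at 0 h and 12 h and in wild type at 0 h and 12 h, since TMM is the shortest of these genes. Of the 24 genes most like a member, 2 were again chosen from deviations from the group means. All genes called in the interaction numbered 106, and 518 with the block, 586 with the lane term, 388 with DESeq2 and 3 with lane 1 alone. ERL1, with as few as 85 reads in a library, has the least depth of the members.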
